A study of Drosophila melanogaster with 20 samples.

Results

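Alcohol, aldehyde and short-chain dehydrogenases oxidise alcohols, aldehydes, sterols and other small molecules with NAD or NADP as the electron acceptor. In Drosophila the alcohol dehydrogenase Adh turns dietary ethanol into acetaldehyde, the aldehyde dehydrogenase Aldh turns acetaldehyde into acetate, and acetate enters fat synthesis as acetyl-CoA. The fat body, the insect tissue that does the work of liver and adipose tissue and that also lies in the head, is a known site of this route. The 5 genes followed here are Adh (FBgn0000055), Aldh (FBgn0012036), CG31075 (FBgn0051075), another member of the aldehyde dehydrogenase family, and CG10962 (FBgn0030073) and CG3699 (FBgn0040349), predicted short-chain dehydrogenases. They were chosen by name, as 5 of the 389 genes that could be named among 15744 probes. All 5 carry at 1 or more times a place in the study's lists of its 100 top-ranked genes, and that ranking used these same arrays.

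Heads or brains of mated Canton S females were compared with those of age-matched virgin Canton S females on 2-colour arrays, mated and virgin RNA on the same array. Females mated at 5 days of age, in groups of 10 females with 20 w; P[UAS-dj-GFP] males for 2 h, and only those with GFP-labelled sperm in the abdomen were kept as mated. There were 5 experiments, on heads collected 0-2, 24, 48 or 72 h after mating and on brains dissected 24 h after mating. Each had 4 arrays of independent samples, which makes 20 arrays. A head sample held about 100 heads and a brain sample 20 brains, and only brain RNA was amplified before labelling. Mated and virgin females of 0-2 h were anaesthetised with CO2 just before freezing, those of 24, 48 and 72 h were frozen without it, and those used for brains were chilled on ice. Mated females of every experiment had spent 2 h with males, and virgins of 0-2 h had not been exposed to them. The paper describes no exposure to males for the other virgins either. Mating and the company of males thus cannot be told apart in any of the 5 experiments.

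All values are log2 ratios of mated over virgin, so a value below 0 means less signal in mated females, and they hold no level of expression. An array had a value for between 1818 and 6466 probes, and the 5 genes had one at 83 of 100 positions. Arrays of 1 dye orientation correlated at r = 0.62 to 0.69 across probes at 0-2 h and those of opposite orientation at r = -0.46 to -0.39, and in brains at 0.59 to 0.64 and -0.39 to -0.22. In these 2 experiments arrays of opposite orientation thus ran against each other, and the genes are given there by orientation as well. Mated RNA carried Cy3 on replicates 1 and 2 and Cy5 on replicates 3 and 4.

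All 5 genes had lower transcript abundance in heads of mated than of virgin females at 24 and 48 h, on every array with a value. At 0-2 h each of them had values on both sides of 0, and so had all but Aldh in brains. At 72 h Adh and Aldh lay near a ratio of 1, CG3699 lay between, and CG31075 and CG10962 were still low. The median of the 5 gene means was 0.18 at 0-2 h, beside a median over all probes tested of 0.01. It was -1.62 beside 0.03 at 24 h and -1.79 beside 0.01 at 48 h. At 72 h it was -0.55 beside 0.01, and brains gave 0.08 beside -0.01. Of the 25 combinations of gene and experiment, 11 stand in the study's lists. These are all 5 genes at 24 h, all but Adh at 48 h, and CG31075 and CG10962 at 72 h. Their values chose the genes and are given as a description, with no test. The other 14 combinations were tested with limma, with Benjamini-Hochberg adjustment over all probes of the experiment. At 48 h the listed gene nearest to 0 was Aldh at -0.59, with Adh, at -0.39, the one not listed. Where arrays of 1 time lie apart from those of another below, this is a description. The share of all probes that separate in this way was not counted.

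**Figure D1:**
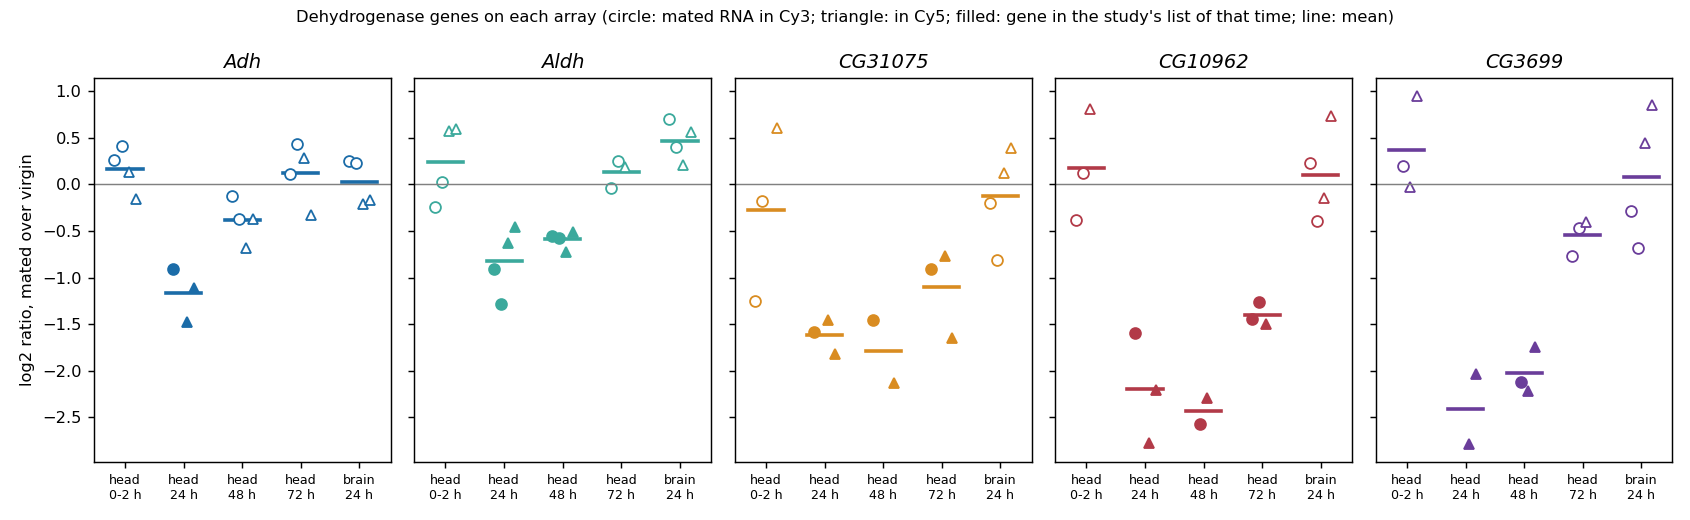
Log2 ratio of mated over virgin (vertical axis) of the 5 dehydrogenase genes on each array, by experiment. Circles are arrays with mated RNA in Cy3, triangles those with it in Cy5, filled symbols mark genes in the study's list of that time, and lines are means. All values at 24 and 48 h lie below 0, and those at 0-2 h and in brains lie on both sides of it.

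Adh, the enzyme of the first step, read 0.26, 0.41, 0.14 and -0.16 on replicates 1 to 4 at 0-2 h. At 24 h it read -0.90, -1.48 and -1.11 on replicates 1, 3 and 4, a mean of -1.17 ± 0.29 (SD, n = 3) or 2.24-fold lower in mated females. At 48 h it read -0.12, -0.37, -0.68 and -0.37, a mean of -0.39 ± 0.23 (SD, n = 4). All 4 arrays of 48 h lay below 0 and above every array of 24 h. At 48 h limma gave a 95% interval of -0.72 to -0.05, an unadjusted p of 0.0292 and an adjusted p of 0.262. At 72 h Adh read 0.11, 0.44, 0.28 and -0.33, a mean of 0.12 ± 0.33 (SD, n = 4), and the groups of 72 h and 0-2 h overlapped. In the RefSeq annotation of Drosophila melanogaster (Release 6 plus ISO1 MT) Adh overlaps osp and its related neighbour Adhr, and Aldh overlaps Shawl. Whether the probes also read these transcripts was not tested.

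Aldh acts on the acetaldehyde that Adh makes. At 0-2 h it read -0.25 and 0.03 with mated RNA in Cy3 and 0.57 and 0.59 with it in Cy5. It read -0.91, -1.29, -0.63 and -0.46 at 24 h and -0.55, -0.57, -0.73 and -0.51 at 48 h. The means were -0.82 ± 0.36 and -0.59 ± 0.09 (SD, n = 4 each), so that the mean of 24 h was 1.77-fold lower in mated females. The 48 h arrays lay within the range of the 24 h arrays. At 72 h Aldh read -0.04, 0.24 and 0.18 on replicates 1 to 3, a mean of 0.13 ± 0.15 (SD, n = 3), with every value above all of those at 24 and 48 h.

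CG31075 lay lower than Aldh, the other aldehyde dehydrogenase, at 24, 48 and 72 h. At 0-2 h its 3 values, -1.25, -0.18 and 0.60, were the widest apart of any of the 5 genes in heads. It read -1.59, -1.45 and -1.82 on replicates 1, 3 and 4 at 24 h, a mean of -1.62 ± 0.19 (SD, n = 3) or 3.07-fold lower in mated females. At 48 h only replicates 1 and 4 had a value, -1.45 and -2.13, 1 in each dye orientation. At 72 h it read -0.91, -0.76 and -1.65, a mean of -1.11 ± 0.47 (SD, n = 3) or 2.15-fold lower, and the array at -1.65 lay within the range of 24 h.

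CG10962 had the lowest mean of the 5 genes at 48 and 72 h. It read -1.60, -2.78 and -2.20 on replicates 1, 3 and 4 at 24 h, a mean of -2.19 ± 0.59 (SD, n = 3) or 4.57-fold lower in mated females. At 48 h the 2 arrays with a value read -2.57 and -2.30, a mean of -2.43 ± 0.20 (SD, n = 2) or 5.41-fold lower. At 72 h it read -1.45, -1.26 and -1.49 on replicates 1 to 3, a mean of -1.40 ± 0.12 (SD, n = 3) or 2.64-fold lower, with every value above all of those at 24 and 48 h. In the same annotation CG10962 overlaps rdgA, which encodes the diacylglycerol kinase of the eye, and the position and strand of its probe were not used here. A probe named rdgA read a mean of 0.05 ± 0.25 (SD, n = 3) at 72 h, with values on both sides of 0, when CG10962 was low on all 3 arrays. In brains it averaged 1.03 ± 0.68 (SD, n = 4), above 0 on all 4 arrays, where CG10962 averaged 0.10. It has a name only through the study's brain list, so the brain value is a description with no test. rdgA was looked up for this overlap after the values of CG10962 were seen.

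CG3699, which RefSeq also lists under the synonym DECR2, read -2.79 and -2.03 at 24 h, both with mated RNA in Cy5. Its mean of -2.41 ± 0.53 (SD, n = 2), 5.32-fold lower in mated females, therefore comes from 1 dye orientation, in which the swap cannot average out a dye effect. At 48 h both orientations were present, with values of -2.12, -2.21 and -1.74 and a mean of -2.03 ± 0.25 (SD, n = 3). At 72 h it read -0.77, -0.47 and -0.41, a mean of -0.55 ± 0.19 (SD, n = 3) or 1.46-fold lower, and every array lay above all arrays of 24 and 48 h. The 72 h values were not in the study's list. limma gave them a 95% interval of -0.87 to -0.23, an unadjusted p of 0.00442 and an adjusted p of 0.287. This gene lies on a part of the print whose layout differed between the earlier and the later arrays, so its values come from 1 probe row at 0-2 and 24 h and from another at 48 h, 72 h and in brains.

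Read together, the 5 genes had 6 of 17 array values below 0 at 0-2 h, then 15 of 15 at 24 h and again 15 of 15 at 48 h. At 72 h 11 of 16 were below 0, and in brains 8 of 20 were. At 24 h 5 of 5 genes had every value below 0, beside 19.0% of all probes with at least 2 values, at 48 h 5 of 5 beside 20.0%, and at 72 h 3 of 5 beside 14.5%. The lists that supplied the genes were drawn from these contrasts, so these counts describe the choice. The means at 24 h ran from -2.41 to -0.82, all below the 5th percentile of the probes tested, -0.72. At 48 h that percentile was -0.59, with CG31075, CG10962 and CG3699 far below it, Aldh at its edge and Adh above it. At 72 h it was -0.37, and the same 3 genes lay below it.

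**Figure D2:**
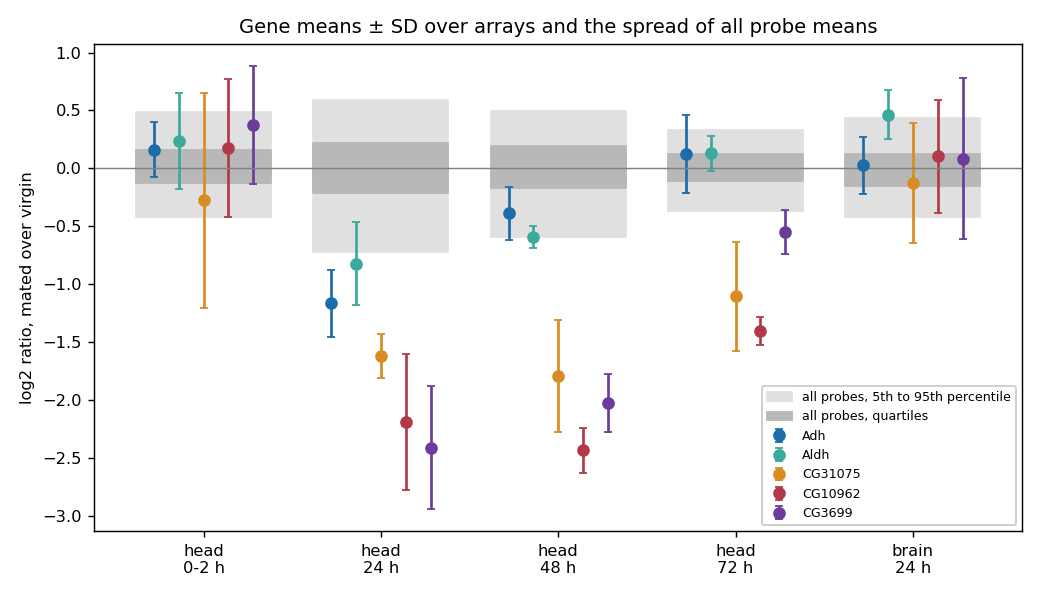
Mean log2 ratio of mated over virgin (vertical axis) of each gene in each experiment, with bars of ± 1 SD over the arrays with a value (n = 2 to 4). Grey bands give the 5th to 95th percentile and the quartiles of the means of all probes tested; at 24 h all 5 genes lie below the lower band edge of -0.72, and at 0-2 h all lie inside the bands.

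The 5 genes kept much the same order on single arrays. Over the arrays of 24, 48 and 72 h, Adh and Aldh each lay above CG10962 and above CG3699 on 8 of 8 shared arrays. Aldh lay above CG31075 on 7 of 7 and Adh on 7 of 8. CG31075 lay above CG10962 on 5 of 5 arrays, and CG10962 below CG3699 on 6 of 7. The mean distance was 1.49 ± 0.46 between Adh and CG10962 and 1.59 ± 0.44 between Aldh and CG10962 (SD, n = 8 each). Some neighbours in this order were not separated by more than their spread. Adh and Aldh differed by -0.02 ± 0.40 (SD, n = 10) with Adh the higher on 8 arrays, and CG31075 and CG3699 by 0.13 ± 0.71 (SD, n = 5). Most of these values chose the genes, so the order is a description. The values are distances between ratios and say nothing of which transcript was the more abundant.

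**Figure D3:**
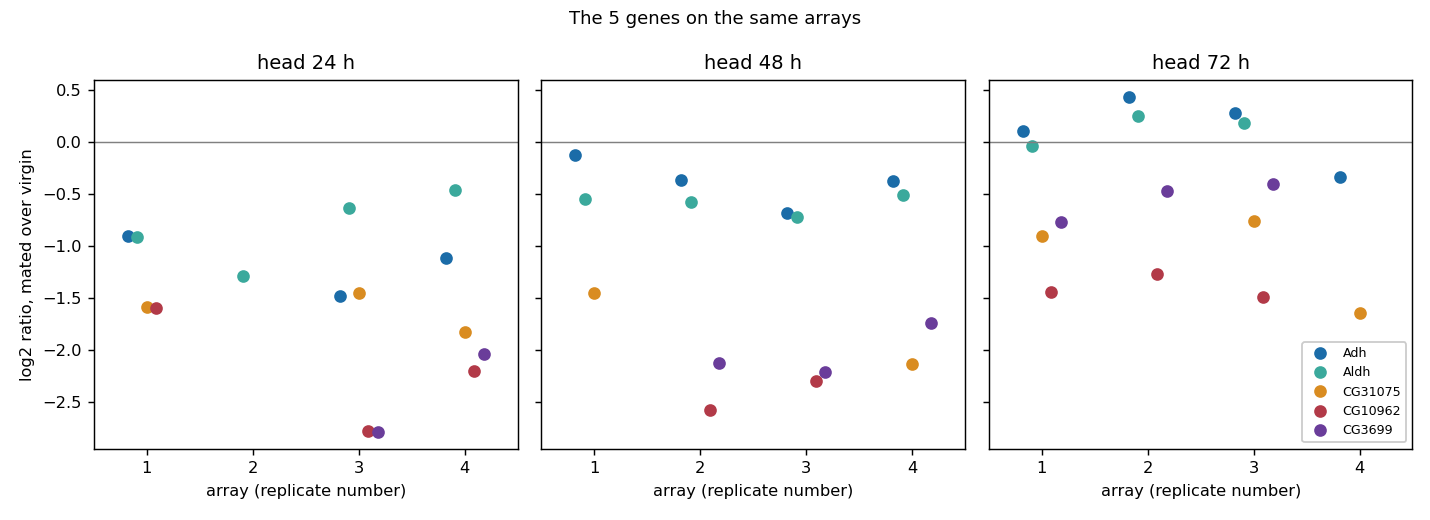
Log2 ratio of mated over virgin (vertical axis) of the 5 genes on each of the 12 head arrays of 24, 48 and 72 h, by replicate number (horizontal axis). Adh and Aldh lie above CG10962 and CG3699 on every array that holds both; on replicate 2 at 24 h only Aldh had a value.

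The first of the tested questions was whether the genes already differed within 2 h of mating. All 5 lie outside the study's list of this time, so that none passing was largely set by the choice. None of the 5 passed at 0-2 h by limma, with an adjusted p of 0.875 or more and an unadjusted p between 0.149 and 0.495, beside 0.0775% of all probes that passed. At this time 2.45% of probes were lower and 3.87% higher at an unadjusted p under 0.05. Adh averaged 0.16 ± 0.24 (SD, n = 4), Aldh 0.23 ± 0.41 (SD, n = 4), CG31075 -0.28 ± 0.93 (SD, n = 3), CG10962 0.18 ± 0.59 (SD, n = 3) and CG3699 0.37 ± 0.51 (SD, n = 3). These means lie within the bands of all probes. The 95% intervals reached down to -1.09 for CG31075 and -0.42 for CG10962, and up to 0.92 for CG3699, so that shifts of that size in mated females lie within the intervals. For Adh and Aldh the intervals were -0.18 to 0.50 and -0.19 to 0.66.

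Dye orientation moved with these values. At 0-2 h Aldh, CG31075 and CG10962 were lower on all arrays with mated RNA in Cy3 than on all with it in Cy5, 3 of 5 genes beside 44.0% of all probes with at least 3 values, and Adh was the reverse, beside 34.6%. CG10962 read -0.38 and 0.12 in Cy3 and 0.80 in Cy5, and CG3699 0.19 in Cy3 and -0.02 and 0.95 in Cy5. With a term for dye orientation in the fit the lowest adjusted p of the 5 genes at this time was 0.293, for Aldh, with an estimate of 0.23. At 24 h the reverse order held for Adh and CG10962, 2 of the 4 genes with at least 3 values, beside 32.5% of probes. Aldh was lower there on all Cy3 than on all Cy5 arrays, beside 43.4%. CG10962 was -1.60 in Cy3 and -2.78 and -2.20 in Cy5, but all 3 values were far below 0. At 48 h Adh had the reverse order by a narrow margin, beside 26.3% of probes. It read -0.1242 and -0.3682 in Cy3 and -0.6845 and -0.3717 in Cy5.

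In dissected brains 24 h after mating, the time at which the heads showed low values of all 5 genes, none of the 5 genes passed by limma. The adjusted p was 0.874 or more, and 0 of 6498 probes passed in this experiment, 0.0%, with 2.34% lower and 3.32% higher at an unadjusted p under 0.05. Adh read 0.25 and 0.23 in Cy3 and -0.21 and -0.17 in Cy5, and averaged 0.03 ± 0.25 (SD, n = 4). CG31075 averaged -0.13 ± 0.52, CG10962 0.10 ± 0.49 and CG3699 0.08 ± 0.70 (SD, n = 4 each). CG3699 read -0.28 and -0.69 in Cy3 and 0.45 and 0.85 in Cy5, and CG31075 -0.20 and -0.81 in Cy3 and 0.12 and 0.39 in Cy5. Over the 5 genes 2 were lower on all Cy3 than on all Cy5 arrays, beside 36.9% of probes, and 1 was the reverse, beside 35.4%.

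Aldh was the gene on 1 side of 0 in brains. It read 0.70, 0.39, 0.20 and 0.56, a mean of 0.46 ± 0.21 (SD, n = 4) or 1.38-fold higher in mated females, and the orientations overlapped. Among probes with 4 values in brains 7.68% had every value above 0. limma gave a 95% interval of 0.09 to 0.84, an unadjusted p of 0.0225 and an adjusted p of 0.874, so the value did not pass, and with a dye term the adjusted p was 0.142. Its adjusted p over all alternatives tried ran from 0.142 to 1.00. The lower ends of the 95% intervals of Adh, CG31075, CG10962 and CG3699 in brains were -0.37, -0.64, -0.40 and -0.54. The head means of these 4 genes at 24 h lay below these ends, and the difference between brain and head was not tested because the head values chose the genes.

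**Figure D4:**
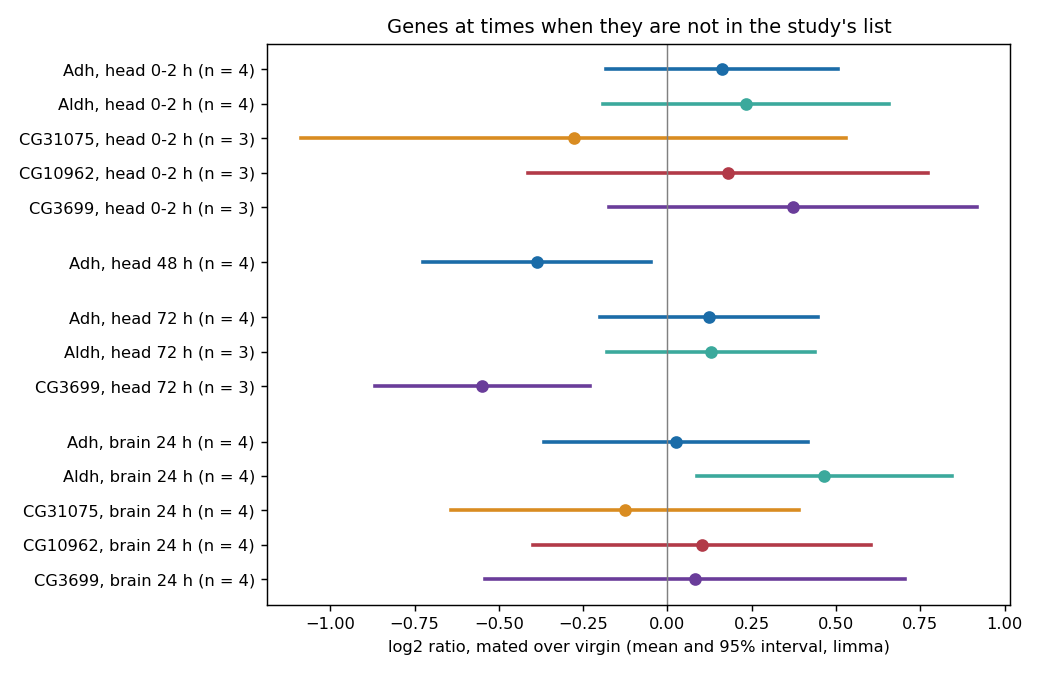
Mean log2 ratio of mated over virgin (horizontal axis) with limma's 95% interval for the 14 combinations of gene and experiment that are not in the study's lists, by experiment from top to bottom. The intervals of Adh at 48 h, CG3699 at 72 h and Aldh in brains lie on 1 side of 0, with adjusted p of 0.262, 0.287 and 0.874.

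Of the 14 tested combinations none passed at an adjusted p under 0.05 by limma, an outcome largely set by their absence from the lists. By limma 3 had an unadjusted p under 0.05, Adh at 48 h and CG3699 at 72 h, both lower, and Aldh in brains, higher. Beside them, 9.49% of probes were lower at 48 h, 4.93% lower at 72 h and 3.32% higher in brains at an unadjusted p under 0.05. At an adjusted p under 0.05, 1.98% of probes were lower at 48 h and 0.0623% lower at 72 h. At 72 h Adh and Aldh had 95% intervals of -0.20 to 0.45 and -0.18 to 0.44 and adjusted p of 0.848 and 0.834 by limma.

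Whether heads at 72 h differed from those at 0-2 h could be tested for the 3 genes that neither list holds. By limma the difference, 72 h minus 0-2 h, was -0.04 (SE 0.20) for Adh, -0.10 (SE 0.24) for Aldh and -0.92 (SE 0.27) for CG3699. The 95% intervals were -0.49 to 0.41, -0.63 to 0.43 and -1.54 to -0.30. CG3699 was lower on all 3 arrays of 72 h than on all 3 of 0-2 h. The share of probes apart in this way was not counted. By limma CG3699 had an unadjusted p of 0.00855 and an adjusted p of 0.422. It did not pass, and 0.0375% of probes did in this comparison. The 2 rows of CG3699 were joined for this comparison, a choice made after the data were seen. Values of CG3699 came from replicates 2 to 4 at 0-2 h and from replicates 1 to 3 at 72 h. The mix of dye orientations thus differed between the times, and this fit held no dye term.

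Other enzymes of these routes and families were followed in a list of 16 genes, sorted by role. Since a gene had a name only where the study lists it, the list leans toward genes that moved and its counts are no independent sign of direction. At 0-2 h 5 of 11 tested had a mean below 0, with a list median of 0.03. At 24 h 9 of 10 had one and at 48 h 8 of 9, with medians of -0.94 and -0.77. At 72 h 11 of 13 had one with a median of -0.31, and in brains 2 of 12 with a median of 0.10. Over all probes the share of means below 0 was 47.6, 46.8, 47.8 and 46.9% at the 4 head times in order, and 52.1% in brains. Of the genes tested, 1 at 0-2 h, 8 genes at 24 h and 6 at 48 h stand in the study's list of that same experiment, as do 5 at 72 h and 3 in brains, and their values there describe the choice. The genes outside that list were tested. These numbered 10 at 0-2 h, 2 at 24 h and 3 at 48 h, followed by 8 genes at 72 h and 9 in the brain experiment. None of them passed at an adjusted p under 0.05 by limma, with 0.0242% of all probes passing at 24 h. As they lie outside the lists, that outcome too was largely set by the choice. At an unadjusted p under 0.05 by limma, 2 of the 10 were lower at 0-2 h, beside 2.45% of all probes. At 24 h 1 of the 2 was higher and 0 lower, beside 2.85% and 5.02%. At 48 h 2 of the 3 were lower, beside 9.49%. At 72 h 0 of the 8 were lower or higher, beside 4.93% and 3.57%. In brains 0 of the 9 were lower or higher, beside 2.34% and 3.32%.

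Men, CG10863, pug and Pgd all stand in the study's 48 h list, and their values at 48 h are given as a description. Men also stands in the 24 h and 72 h lists, so its values at those times describe the choice as well. Pgd and pug were singled out after their values were seen. Men, malic enzyme, supplies NADPH for fat synthesis and averaged 0.31 ± 0.71 at 0-2 h (SD, n = 4) and -1.17 at 24 h (n = 2). It averaged -1.16 ± 0.44 at 48 h, -0.78 ± 0.33 at 72 h and 0.10 ± 0.34 in brains (SD, n = 4 each). Pgd, phosphogluconate dehydrogenase of the pentose phosphate pathway, averaged -0.998 ± 0.485 at 48 h (SD, n = 4), and pug, a folate enzyme, -1.02 ± 0.18 (SD, n = 3). CG10863, an aldo-keto reductase of the family that turns aldehydes into alcohols, averaged -1.03 ± 0.33 at 48 h and -0.31 ± 0.60 at 72 h (SD, n = 4 each).

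AcCoAS, acetyl-CoA synthetase, takes the acetate made by Aldh to acetyl-CoA. It averaged 0.36 ± 0.61 at 0-2 h (SD, n = 4), -0.59 ± 0.01 at 24 h (SD, n = 2), -0.43 ± 0.22 at 48 h, -0.42 ± 0.14 at 72 h and 0.06 ± 0.15 in brains (SD, n = 4 each). It has a name only through the study's 72 h list, so its value at 72 h is a description. At 48 h, outside the list, it was below 0 on all 4 arrays but did not pass, with an adjusted p of 0.219 by limma. CG6084, an aldo-keto reductase, averaged -0.96 ± 0.32 at 24 h (SD, n = 3), -0.72 ± 0.44 at 48 h and 0.18 ± 0.46 at 72 h (SD, n = 4 each). CG6084 has a name only through the study's 24 h list, so its value at 24 h is a description.

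**Figure D5:**
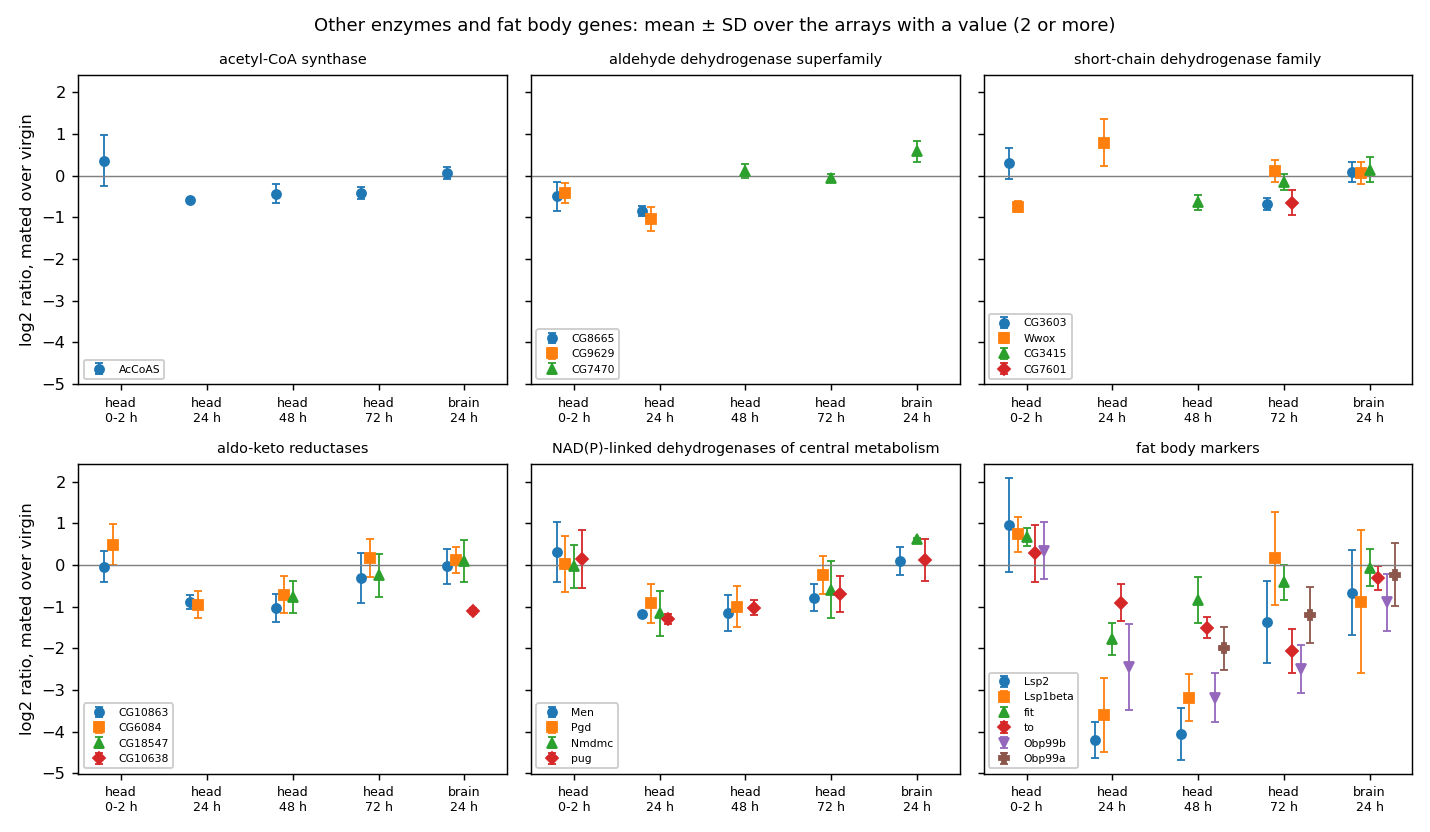
Mean log2 ratio of mated over virgin (vertical axis) ± SD over the arrays with a value, for 16 other enzymes in 5 groups by role and for the fat body genes, by experiment. Of the 9 enzymes tested at 48 h all but CG7470 have a mean below 0, and the fat body genes reach -4.05.

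Fat body transcripts were low in heads of mated females at 24 and 48 h, as were all 5 genes. At 72 h most fat body markers were still low, when Adh averaged 0.12 and Aldh 0.13. The markers have names only through the study's lists of these contrasts, so their counts describe the choice and are no test. At 0-2 h 5 of 5 fat body markers tested had a mean above 0 with a median of 0.67. At 24 h 5 of 5 had a mean below 0 with a median of -2.44, at 48 h 6 of 6 with a median of -2.60, and at 72 h 5 of 6 with a median of -1.29. In brains 6 of 6 were below 0 with a median of -0.49. Over all probes 46.8% of means were below 0 at 24 h and 47.8% at 48 h. Lsp2, which encodes a larval serum storage protein, averaged -4.21 ± 0.43 at 24 h (SD, n = 3), -4.05 ± 0.62 at 48 h and -1.37 ± 0.98 at 72 h (SD, n = 4 each), and Lsp1beta -3.60 ± 0.89 at 24 h (SD, n = 3) and 0.16 ± 1.12 at 72 h (SD, n = 3). Eye markers had 4 of 4 means above 0 at 24 h with a median of 1.26, and all 4 stand in the study's 24 h head list. At 48 h 2 of 2 were below 0 with a median of -0.12, and at 72 h 2 of 2 above 0 with a median of 0.63. The neuron and muscle markers have names only through the study's brain list. Neuron markers had medians between -0.13 and 0.07 in heads and -0.72 in brains, and muscle markers between -0.15 and 0.23 in heads and 0.79 in brains. As the arrays give ratios only, they cannot show whether a marker was present. In whole heads, fewer fat body cells and less RNA per cell cannot be told apart, and the part of these marker shifts in the values of the 5 genes was not tested.

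The named genes with the most similar pattern were searched on the part of the print that held the same gene in every experiment, by the mean absolute difference of log2 ratio over at least 10 shared arrays. For CG31075 they were CG11594 (0.35 over 11 arrays), Prat2, an enzyme of purine synthesis (0.39 over 15), and CG9914 (0.41 over 15). For CG10962 they were Men (0.55 over 14), Nmdmc, a mitochondrial folate dehydrogenase (0.66 over 11), and CG9515 (0.66 over 13). For CG3699 they were CG9515 (0.35 over 14), CG11594 (0.41 over 11) and CG32444 (0.44 over 12). Among the 5 genes themselves, CG3699 lay 0.38 from CG31075 over 11 arrays and 0.44 from CG10962 over 13. Measured from CG10962, CG3699 and CG31075 (0.51 over 11 arrays) were nearer than all of the 2411 probes compared, and the median distance was 1.23. CG10962, CG3699 and CG31075 were listed for low values on some of the same head arrays, so their nearness follows in part from the choice.

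Adh and Aldh were 0.36 apart over 18 arrays, nearer to each other than to any of the other 3 genes, but many probes lay as near. From Adh, 180 of 2882 probes were nearer than Aldh, and from Aldh 271 of 2695 were nearer than Adh. Their nearest named genes were CG32276 (0.22 over 14 arrays), the kinase LIMK1 (0.32 over 11) and CG14542 (0.33 over 10) for Adh, and CG34424 (0.25 over 17), the basement membrane protein gene Ndg (0.25 over 13) and CG5958 (0.27 over 17) for Aldh. Arrays share samples and dye across probes, and a gene with ratios near 0 lies close to most probes, so these distances are a description. When means per experiment took the place of single arrays, 2 of the 3 nearest genes stayed for CG31075 and 1 of 3 for each of the other genes.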

How the data were processed

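The deposited values are log2 ratios, mated over virgin, normalized by the authors and with swapped arrays already turned. The sources used here do not give the scanner, the background correction, the normalization method or why some positions are empty. Gene names came from the study's lists of top genes: an entry's mean ratio (relative tolerance 2e-05) and p-value (0.005) were matched to a row of the deposited table, which placed 495 of 499 entries. The authors' own ratios and p-values in those lists served for naming alone. The 32 control rows were left out, and 0 columns were unused.

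The main test was limma's (version 3.58.1, R 4.3.3, lmFit and eBayes) of a mean log2 ratio against 0 in each experiment, for probes with 2 or more values, with Benjamini-Hochberg adjustment and a threshold of 0.05. The difference between 72 and 0-2 h was fitted over both times on plates 2 to 30, whose layout is shared. CG3699 lies outside these plates, so its rows of the 2 layouts were joined and added to that fit. The replicate block, where added, was a fixed factor in the limma design. The script was tested on simulated data with random seed 1. Python 3.11.15 with pandas 2.3.3, numpy 2.4.6 and matplotlib 3.10.9 made the tables and the plots.

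By rule the text names the 5 genes, the 4 enzymes of the list with the most arrays (CG6084 and pug tied for the last place, which went to the first by alphabet), Lsp2 and Lsp1beta, and the 3 most similar named genes of each of the 5. Outside this rule, Pgd and pug were named after their values were seen, and rdgA, osp, Adhr and Shawl for an overlap. A caption also names CG7470. Genes and lists were chosen with earlier results of these data known. The alternatives changed the centring or scaling of arrays, added a dye term, asked for values on 3 or 4 arrays or in each orientation, used robust eBayes or a one-sample Student's test, which the methods do not name and whose counts stand in the closing section only, fitted the 20 arrays together, left out single replicates or added a replicate block. The joined rows of CG3699, and a dye term at 72 h with replicates 1 and 4 against 2 and 3, were chosen after the data were seen. Means over 2 to 4 arrays are imprecise, and depth has no counterpart on these arrays.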

Additional observations from a re-analysis of the deposited data

Results flagged for a closer look

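Aldh was above 0 on 4 of 4 brain arrays and below 0 on 4 of 4 head arrays of 24 h, a distance of 1.29 in mean log2 ratio, brain minus head. It was also below 0 on 4 of 4 head arrays of 48 h, a distance of 1.05. Every sample of one experiment moved against every sample of the other, which drew attention to them. The share of all probes apart in this way was not counted, and in brains Aldh had an adjusted p of 0.874 by limma. Neither difference was tested, since the head values belong to those that chose the gene, and brain RNA was amplified when head RNA was not.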

How the results depend on the processing

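Under 180 alternatives for the 14 tested combinations none passed, with an adjusted p of 0.118 or more, and 172 kept their direction. That none passed was largely set by their absence from the study's lists. The other 8 left out 1 array and turned the sign of a mean near 0. Without 1 replicate Adh in brains ran from -0.0502 to 0.10, CG31075 from -0.72 to 0.21 at 0-2 h and from -0.30 to 0.10 in brains, CG10962 from -0.13 to 0.46 at 0-2 h and from -0.11 to 0.27 in brains, and CG3699 in brains from -0.18 to 0.34. All 11 listed combinations stayed below 0 in 123 refits. Every array value of all 11 was below 0, so this was largely fixed beforehand and is no support. Scaling moved CG10962 by more than its SD, to -2.18 at 48 h and -1.62 at 72 h. For 72 h minus 0-2 h, leaving out a replicate gave -0.10 to 0.00924 for Adh, -0.23 to 0.0145 for Aldh and -1.19 to -0.63 for CG3699. With the replicate block the values were -0.04, 0.0145 and -0.52, the last with a 95% interval of -1.22 to 0.17 that holds 0, and none passed; same-numbered arrays of these times correlated at -0.39 to 0.29 in their deviations, so the numbers do not pair them.

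Of the enzyme list, a fit with a dye term passed 3 genes at 24 h, and a joint fit of the 20 arrays 5. At 48 h 4 passed in the main fit, all of them genes of the study's 48 h list. The one-sample Student's test passed 0 there, and fits without 1 replicate 0 to 6. At 72 h 2 passed with a dye term. In the main fit 8 of the 10 list genes tested at 24 h stood in the study's list of that time, and 5 of the 13 at 72 h. These counts therefore describe the choice in part. Counts over all probes from the same fits follow, and the numbers of probes tested in them are not given here. Over all probes the dye term, fitted to fewer probes, passed 47 at 0-2 h, 51 at 24 h, 47 at 72 h (13 with replicates 1 and 4 against 2 and 3) and 6 in brains. The one-sample Student's test passed 0 at every time. At 0-2 h centring passed 0, and values on 3 or 4 arrays or in each orientation 1. At 24 h scaling passed 0, values on 4 arrays 0, on 3 arrays 2, and the joint fit 84. At 72 h scaling passed 12, values on 4 arrays 0 and the joint fit 2, and in brains values on 4 arrays passed 1. Without 1 replicate 0 to 2 passed at 0-2 h and 1 to 3 at 24 h, then between 14 (no replicate 3) and 91 at 48 h, and between 3 and 12 at 72 h. The cause of these shifts was not tested.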

Other observations

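At 72 h the deviations of the arrays from their mean did not follow the dye labels. Set against the difference between the orientations at 0-2 h over 1205 probes, replicates 1 and 2, labelled with mated RNA in Cy3, correlated at 0.16 and -0.25, and replicates 3 and 4, labelled with it in Cy5, at -0.28 and 0.33. Against the same difference in brains over 1598 probes the values were 0.16 and -0.09, and -0.16 and 0.10. At 24 h replicates 1 to 4 gave 0.475, -0.15, -0.32 and -0.16 over 141 probes, with replicate 2 against its label. At 48 h replicates 1 to 4 gave 0.17, 0.51, -0.41 and -0.39, in the order of the labels. CG10962 and CG3699 were below 0 on every array with a value at 72 h, replicates 1 to 3, and CG31075 on replicates 1, 3 and 4. Adh at 72 h read -0.33 on replicate 4 and 0.11 or more on the other arrays.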
